A study of Saccharomyces cerevisiae with 58 samples.

Results

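The genes examined here are 8 genes of budding yeast that carry cells from G1 into S phase: the G1 cyclin genes CLN1, CLN2 and CLN3, the S phase cyclin genes CLB5 and CLB6, the genes PCL1 and PCL2 for G1 cyclins of the kinase Pho85, and SIC1, which encodes an inhibitor of the Clb5 and Clb6 kinase complexes. They were chosen by name, as the probe sets annotated to these symbols, and each had 1 probe set among the 5716 Saccharomyces cerevisiae probe sets tested. The 2 strains were profiled on 58 Affymetrix arrays: a wild type of the genotype MATalpha ura3-52 his3delta200 lys2delta201 ade2, and an isogenic mutant in which the chromosomal RPB6 gene is replaced by HIS3 and a centromeric LEU2 plasmid supplies Rpb6 with a glutamine-to-arginine substitution. Rpb6 is a subunit of RNA polymerase II, and the study used the substitution to ask whether the polymerase couples the making of an mRNA to its breakdown. Cells grew in rich medium at 30 °C, and each strain was sampled in 4 courses: H2O2 at 0.3 mM (7 times from 0 to 45 min), the alkylating agent MMS at 0.1% (8 times from 0 to 180 min), and 2 decay courses after phenanthroline, a chelator that stops transcription (7 times from 0 to 50 min), 1 without stress (the reference) and 1 begun after 7 min in H2O2. The mutant grows more slowly than the wild type according to the methods, so a difference in growth rate goes with every difference between strains.

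In late G1 the transcription factors SBF and MBF switch on CLN1, CLN2, PCL1, CLB5 and CLB6. Cln3 with the kinase Cdc28 starts that wave by relieving repression through Whi5, Cln1 and Cln2 then drive budding and the destruction of Sic1, and Clb5 and Clb6 start DNA replication once Sic1 is gone. PCL2 and SIC1 are transcribed at the passage from M to G1, and Pcl1 and Pcl2 steer Pho85 to substrates that include Sic1. The Cln proteins and Sic1 are removed by the SCF ubiquitin ligase. All levels here are mRNA levels of unsynchronized bulk cultures, so fewer cells in G1 and less of the mRNA per cell cannot be told apart.

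Values are log2 levels after robust multi-array averaging (RMA), which gives every array of a set about the same distribution, so that a level is relative to the average mRNA. The 14 H2O2, 16 MMS and 28 decay arrays were normalized as 3 sets apart, and changes are therefore compared rather than levels across sets. On the 58 arrays used here a course is 1 culture sampled once at each time, and only the untreated state is replicated, with 3 arrays per strain. Error in a course is taken from its scatter about the fitted curve, and culture and treatment cannot be told apart. All 8 genes were above the signal of 1747 Schizosaccharomyces pombe probe sets on the same chip, whose 95th percentile was 5.11: the lowest single level of a member was 5.77 (PCL1) and the mean levels over all arrays ran from 8.16 for PCL2 to 10.09 for SIC1. As a check of the labels, RPO26, the gene of Rpb6, was lower in the untreated mutant, with differences of -0.90, -0.45 and -0.45 in the H2O2, MMS and decay sets, and the plasmid marker LEU2 was higher by 0.58, 0.54 and 0.46. HIS3, which replaces RPB6 in the mutant, was higher there by 0.54, 1.33 and 0.58. In the wild type, given as his3delta200, HIS3 still read 10.59, 11.06 and 10.95, above the S. pombe signal. The source of that reading was not tested.

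In untreated cells the strains had closely similar levels of most of these mRNAs, and PCL2 and PCL1 had the widest gaps. PCL2 was at 8.53, 9.23 and 8.82 in the wild type and at 8.01, 8.71 and 8.44 in mutant cells (H2O2, MMS and decay sets). It was lower in the mutant in each of the 3 sets, with differences of -0.51, -0.52 and -0.39, although the levels of both strains overlap across sets. PCL1 was at 9.76, 10.14 and 10.07 in the wild type and at 10.38, 10.27 and 10.39 in mutant cells, higher in the mutant in each set by 0.62, 0.13 and 0.32. With the array set as a block, limma gave PCL2 a mean difference of -0.47 ± 0.07 (SE, n = 3 arrays per strain) with a Benjamini-Hochberg adjusted p of 0.0512, and PCL1 one of 0.36 ± 0.11 with an adjusted p of 0.146. None of the 8 genes passed the adjusted threshold of 0.05 in limma, 2 passed it unadjusted, and 1.91% of all tested probe sets passed it adjusted. PCL2 passed under 3 of the alternative settings, with adjusted p of 0.0263 with an intensity trend, 0.0479 among probe sets above background and 0.0483 after quantile normalization. CLN3 and CLB5 lay lower in the mutant in all 3 sets, with mean differences of -0.20 and -0.16. CLN1, CLN2 and CLB6 had mean differences of 0.15, 0.12 and 0.09, although in the MMS set CLN1 and CLB6 were at -0.01 and -0.20. SIC1 had a mean difference of 0.01. The limma adjusted p lay between 0.268 and 0.963 for these 6 genes.

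**Figure D1:**
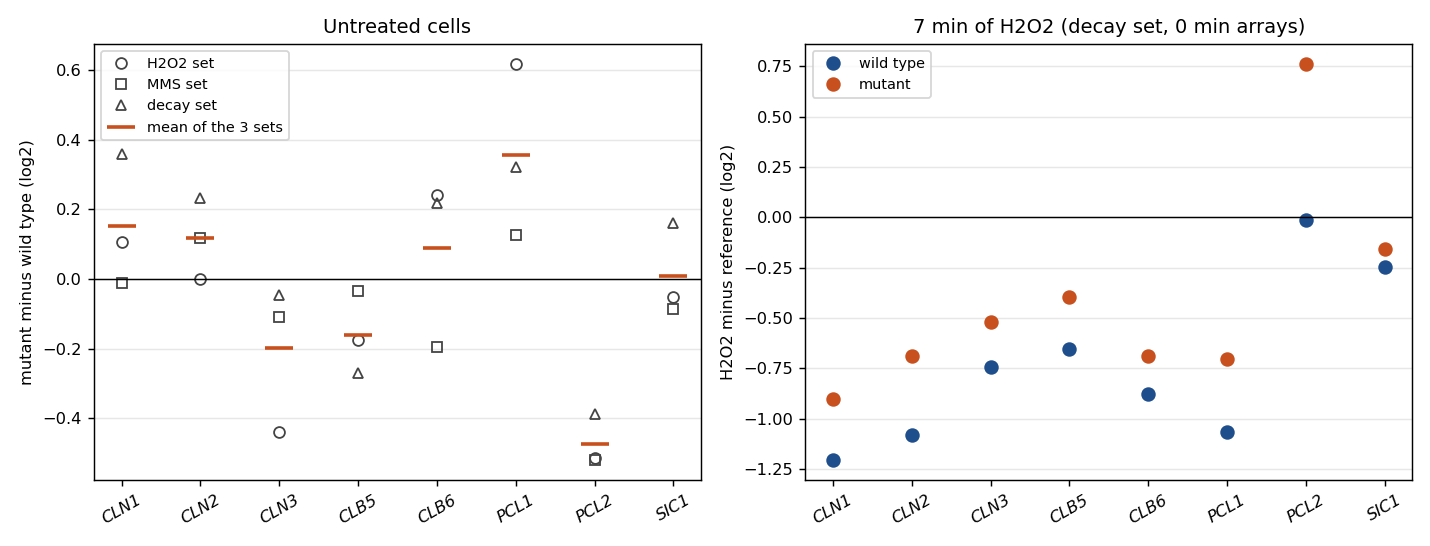
Left, log2 level of the mutant minus that of the wild type in untreated cells for each of the 8 genes, with 1 symbol per array set and a bar at the mean of the 3 sets. Right, log2 level after 7 min of H2O2 minus that without H2O2 in the decay set, 1 array per condition and strain. PCL2 is below 0 in all 3 sets on the left and is the 1 gene above 0 on the right, in the mutant at 0.76.

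Within 5 min of H2O2 every one of the 8 mRNAs stood below its starting level in the wild type, and 7 of 8 did so in mutant cells. The median change of the 8 genes was -0.70 at 5 min, -0.72 at 15 min and -0.48 at 45 min in the wild type, and -0.55, -0.53 and -0.30 in mutant cells, while the median over all tested probe sets lay between -0.04 and -0.01 at every time. The limma spline test called 8 of 8 lower in the wild type, where 27.6% of all tested probe sets were called lower. For the mutant it called 5 of 8 lower, against 10.2% of all tested probe sets. The median of the largest change was -0.81 in the wild type and -0.67 in mutant cells, against -0.10 and -0.11 over all tested probe sets.

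CLN2 had the largest fall in the wild type. Its level went from 10.20 at 0 min to 9.39, 9.16, 9.02, 9.20, 9.43 and 9.62 at 5, 10, 15, 25, 35 and 45 min, a 2.27-fold fall at 15 min of which 51.5% was regained by 45 min (limma adjusted p = 0.000413). In the mutant CLN2 went from 10.20 to 9.61, 9.41, 9.41, 9.47, 9.53 and 9.62, a 1.73-fold fall at 10 min with 26.4% regained (limma adjusted p = 0.00597). The strains began and ended at the same level and were furthest apart, with the wild type the lower, at 15 min.

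CLN1, whose product shares its role with Cln2, fell in the wild type from 10.21 to 9.23, 9.12, 9.12, 9.51, 9.73 and 9.75, which is 2.13-fold at 15 min (limma adjusted p = 0.00167). Mutant levels went from 10.32 to 9.68, 9.59, 9.64, 9.94, 10.15 and 10.10, a 1.65-fold fall at 10 min (adjusted p = 0.0217). The mutant lay above the wild type at all 7 times, and it regained 70.4% of the fall against 57.7% in the wild type.

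CLN3 was the first of the 8 to reach its lowest level in the wild type. It stood in the wild type at 9.84 before and 8.98, 9.10, 9.22, 9.62, 9.47 and 9.32 during treatment, lowest at 5 min (1.82-fold, limma adjusted p = 0.0366). The mutant had 9.40 before and 8.93, 8.76, 9.07, 9.50, 9.57 and 9.43 during treatment, lowest at 10 min (1.55-fold, adjusted p = 0.0362). From 25 min on the mutant lay at or above its starting level and the wild type below its own. That contrast rests on the 0 min arrays, where the mutant minus wild type difference was -0.44 here but -0.11 and -0.04 in the MMS and decay sets.

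The S phase cyclin genes fell with the G1 cyclin genes. CLB6 was lowest at 15 min in both strains, by 1.78-fold in the wild type and 1.88-fold in mutant cells (limma adjusted p = 0.0063 and 0.0141), with 63.6% and 60.1% of the fall regained by 45 min. It was the 1 member of the 5 late G1 genes with a larger fall in the mutant. CLB5 fell by 1.59-fold in the wild type (adjusted p = 0.00653) and its largest change in the mutant was 1.43-fold, which did not pass (adjusted p = 0.0652).

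PCL1 fell by 1.74-fold at 10 min in the wild type (limma adjusted p = 0.0115). In the mutant it went from 10.38 to 9.67, 9.72, 9.79, 9.77, 9.90 and 9.77, a change that was complete by 5 min and that the spline did not pass (adjusted p = 0.0956). All 6 treated arrays were below the untreated one in both strains. PCL2 had a course of its own. Its wild type level declined slowly, from 8.53 to 8.42, 8.10, 7.99, 7.85, 7.93 and 7.80, with its largest change of -0.73 at the last array (adjusted p = 0.0259). In the mutant it went from 8.01 up to 8.45 at 5 min and then to 8.01, 7.88, 7.63, 7.84 and 7.72, so that its largest change was 0.44 upward (adjusted p = 0.134).

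SIC1 changed least in the wild type, from 9.76 to 9.35, 9.33, 9.26, 9.27, 9.49 and 9.26, and was still 1.42-fold down at 45 min (limma adjusted p = 0.0137). In the mutant it went from 9.71 to 9.49, 9.37, 9.43, 9.54, 9.70 and 9.83, a 1.26-fold dip at 10 min that had ended by 35 to 45 min (adjusted p = 0.031). The limma test of the difference between the strains' curves passed for none of the 8 genes (1 unadjusted, SIC1 with adjusted p = 0.195) and for 1.24% of all tested probe sets. The mean difference in change over the treated times, mutant minus wild type, ran from -0.12 for CLB6 to 0.43 for PCL2, and 6 of 8 were positive. Over all tested probe sets the median of this difference was -0.0031.

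**Figure D2:**
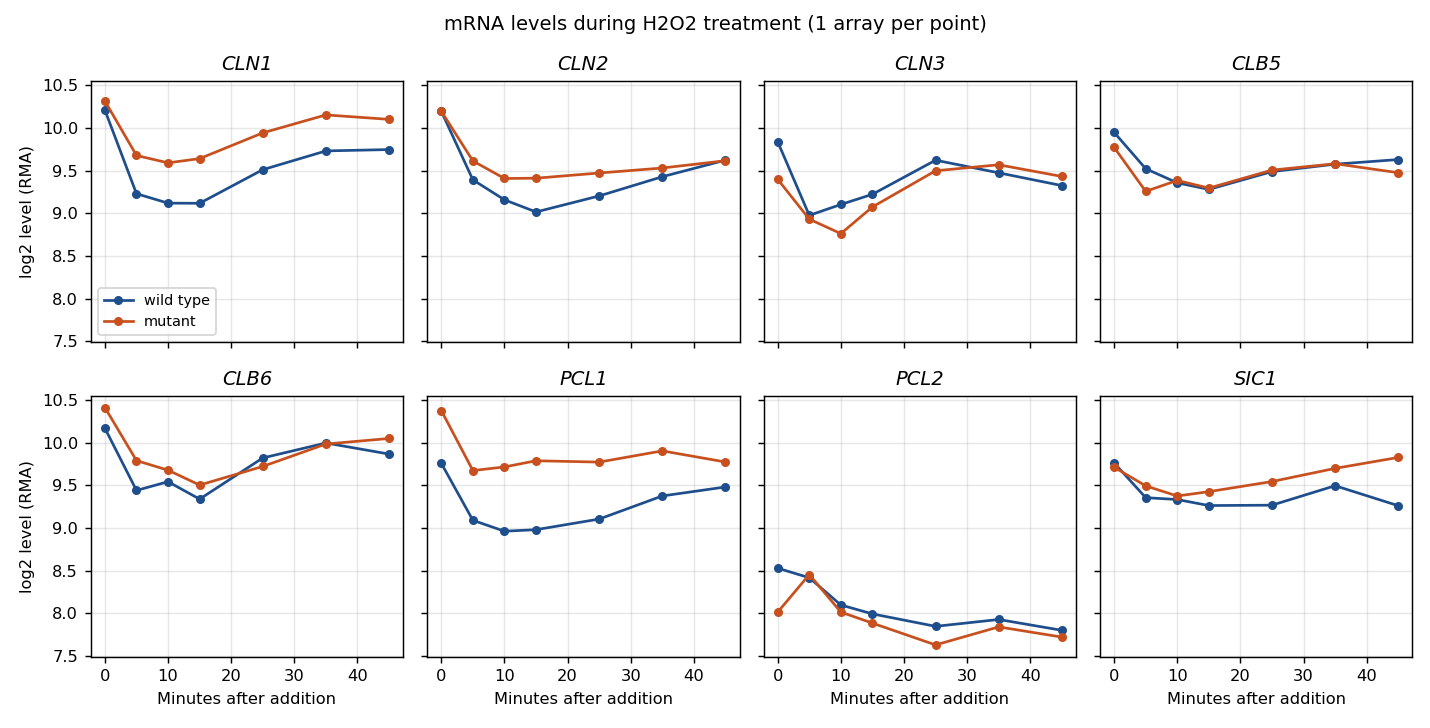
log2 RMA level of the 8 mRNAs against minutes of H2O2 in the wild type (blue) and the mutant (orange), 1 array per point, with the same axes in every panel. CLN1, CLN2, CLN3, CLB5, CLB6 and PCL1 dip within 15 min and partly return, PCL2 declines slowly in the wild type after 5 min and stands 0.44 above its start at 5 min in the mutant, and SIC1 moves least in the wild type.

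These calls rest on few arrays. For the wild type 5 of 8 passed without the 10 min arrays and 6 without those of 15 or of 25 min, with CLN3, PCL1 and PCL2 being the genes lost. In the mutant none passed without the 10 min arrays, 1 without 15 min, 3 without 25 min and 7 without 5 min. A spline with 2 degrees of freedom, which bends less, passed 2 of 8 in the wild type and none in mutant cells, and a spline in log time passed 8 of 8 in the mutant.

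The 0 min arrays of the H2O2 decay courses give a second look at early H2O2, in separate cultures and without a test. Wild type CLN1 was at 10.35 without and 9.15 after 7 min of H2O2, CLN2 at 10.63 and 9.55, PCL1 at 10.07 and 9.01, and CLB6 at 10.32 and 9.44. CLN1, CLN2 and PCL1 lay lower by over 2-fold, namely 2.30-fold, 2.12-fold and 2.09-fold, where 0.805% of all tested probe sets did. Mutant cells had no member past 2-fold, where 0.332% of all tested probe sets were: CLN1 went from 10.71 to 9.81, and PCL1, CLN2 and CLB6 had changes of -0.70, -0.69 and -0.69. The change was smaller in size in the mutant for 7 of 8 genes, a count that was not made over all tested probe sets. PCL2 was again the exception: it stood at 8.82 and 8.81 in the wild type, and at 8.44 and 9.20 in mutant cells, a rise of 0.76 in a culture other than the one that showed 0.44 at 5 min.

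MMS brought larger and lasting falls. All 8 genes were called lower in both strains, in a course where the limma test also called 41.5% of all tested probe sets lower in the wild type and 39.2% in mutant cells. The median change of the 8 genes was -0.89 at 20 min, -1.71 at 80 min and -2.57 at 180 min in the wild type, and -0.63, -1.19 and -2.23 in mutant cells. The median over all tested probe sets stayed between -0.01 and 0.10 in both strains.

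The 4 genes of the late G1 burst CLN1, CLN2, PCL1 and CLB6 went on falling to the last array. PCL1 went in the wild type from 10.14 to 8.88, 8.16, 7.63, 7.63, 7.63, 7.40 and 6.54 at 20, 40, 80, 100, 120, 140 and 180 min, a 12.1-fold fall (limma adjusted p = 3.8e-08). In the mutant it went from 10.27 to 9.29, 8.93, 8.60, 8.22, 7.95, 7.78 and 6.91, which is 10.3-fold (adjusted p = 6.8e-08). The mutant was the higher at every treated time, most at 80 min.

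CLN2 fell from 10.14 to 9.25, 8.62, 8.30, 7.92, 7.56, 7.36 and 6.60 in the wild type, 11.6-fold, and from 10.26 to 9.63, 9.13, 8.68, 8.23, 7.87, 7.57 and 6.93 in the mutant, 10.0-fold (limma adjusted p = 4.7e-08 and 6.1e-08). CLN1 fell by 9.31-fold in the wild type and 8.11-fold in mutant cells. Both genes declined at every step in both strains. CLB6 held between 9.78 and 9.13 from 20 to 100 min in both strains and then dropped to 7.67 in the wild type and 7.12 in mutant cells at 180 min, falls of 7.44-fold and 9.54-fold.

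CLN3 fell to 8.01 at 180 min in the wild type, 4.71-fold, and levelled off between 8.58 and 8.74 from 80 min in the mutant, at most 2.94-fold down. CLB5 took most of its fall in the first 20 min, from 10.26 to 9.52 in the wild type and from 10.22 to 9.57 in mutant cells, and lay between 9.20 and 9.54 in both strains after that. Its largest changes were 2.09-fold and 1.98-fold (limma adjusted p = 0.000608 and 0.000752), so the pair of S phase cyclin genes had unlike courses. PCL2 was lowest at 80 min, down 3.12-fold from 9.23 in the wild type and 1.80-fold from 8.71 in mutant cells, and then rose by 0.23 and 0.19. At 80 min the level was 7.59 in the wild type and 7.86 in mutant cells, so that the strain with the lower start had the smaller fall.

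SIC1 fell least, by 1.65-fold in the wild type (limma adjusted p = 0.00407) and 1.45-fold in the mutant (adjusted p = 0.0365). The call in the mutant was lost without the arrays of 40, 80, 100 or 120 min (adjusted p between 0.0614 and 0.116), and that of PCL2 in the mutant with a spline of 2 degrees of freedom (adjusted p = 0.127). The strain contrast of the MMS curves passed for none of the 8 genes in limma, against 3.32% of all tested probe sets; 3 passed unadjusted. These were PCL2, CLN3 and PCL1, with adjusted p of 0.0722, 0.0943 and 0.157. The mean change over the treated times was less negative in the mutant for all 8, by 0.71 for PCL2, 0.51 for CLN3 and 0.42 for PCL1 and by 0.05 to 0.27 for the others. Over all tested probe sets the median of this difference was 0.046, and 49.8% had a lower one than CLB5 and 98.5% a lower one than PCL2. With a spline in log time, PCL2 and CLB6 passed (adjusted p = 0.0466 and 0.0347).

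**Figure D3:**
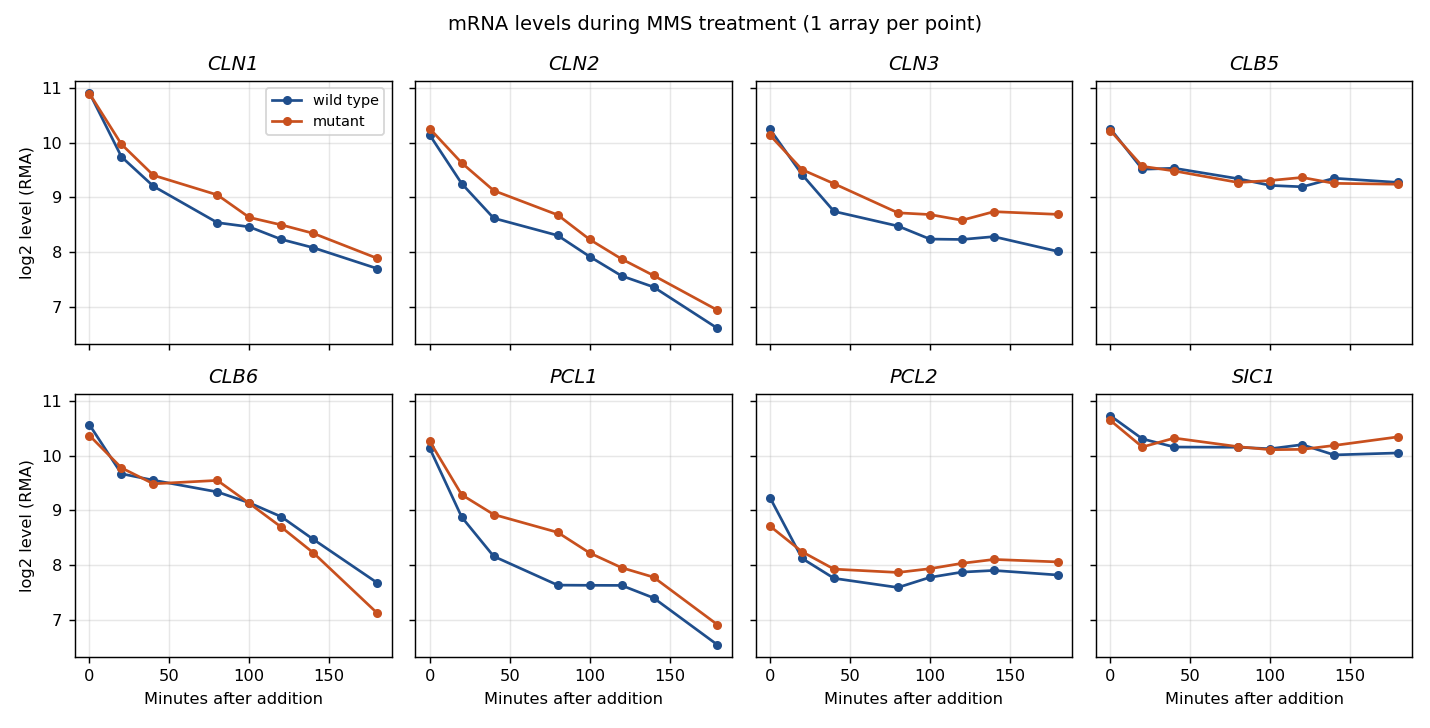
log2 RMA level of the 8 mRNAs against minutes of MMS in the wild type (blue) and the mutant (orange), 1 array per point, with the same axes in every panel. CLN1, CLN2, PCL1 and CLB6 end between 6.54 and 7.88, while CLB5 and SIC1 stay near their 20 min levels, and PCL2 starts lower in the mutant and ends higher.

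Among the 26 treated arrays of the H2O2 and MMS courses, the change from 0 min of CLN1 was most like that of CDC5, a mitotic kinase gene (r = 0.99), and that of CLN2 most like those of BRR2, a splicing helicase gene, DSE4, a daughter cell glucanase gene, and PMA1, the proton pump gene (r = 0.98 each). PCL1 was closest to CLN1 itself (r = 0.98). CLN3 was closest to TEC1, a transcription factor gene (r = 0.97), CLB5 to SNC2, a vesicle fusion gene (r = 0.96), CLB6 to ACC1, the fatty acid synthesis gene (r = 0.98), and PCL2 to PTP3, a tyrosine phosphatase gene (r = 0.94). SIC1 had the weakest closest match, the kinase gene PRR1 (r = 0.86). These correlations run over arrays of 4 cultures that share 2 treatments and are descriptions.

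After phenanthroline, CLN1, CLB6 and PCL1 were among the shortest lived mRNAs measured, and SIC1 was the longest lived of the 8. Half-lives were fitted to the deposited scaled ratios, which carry the authors' scaling to a common average decay in every course and so cannot show a global difference. In the wild type reference course 42.5% of CLN1, 52.2% of CLB6 and 56.6% of PCL1 was left at 5 min, and the half-lives were 4.86 ± 0.72, 5.33 ± 0.32 and 6.58 ± 0.64 min (SE of the fit). Of all probe sets fitted, 0.152%, 0.239% and 0.501% had shorter ones. CLN2 had a half-life of 9.02 ± 0.25 min, PCL2 11.2 ± 0.8 min, CLB5 12.3 ± 0.8 min, CLN3 16.4 ± 2.7 min and SIC1 28.6 ± 2.2 min, against a median of 23.3 min over the fitted probe sets. In the order of these half-lives, CLN1 and CLB6, and PCL2 and CLB5, differed by less than their combined errors.

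In the mutant reference course 7 of 8 half-lives were longer than in the wild type: 7.90 ± 1.95 min for CLN1, 9.70 ± 2.43 for CLB6, 8.59 ± 2.38 for PCL1, 14.7 ± 2.6 for CLN2, 20.9 ± 2.9 for PCL2, 16.9 ± 2.1 for CLB5 and 30.6 ± 2.3 for SIC1. CLN3 was at 16.3 ± 2.9 min. For CLN1, PCL1 and CLB6 the slopes of the RMA level went the other way. They were -0.057, -0.079 and -0.072 per min in the mutant against -0.039, -0.045 and -0.068 in the wild type. None of these differences passed (limma adjusted p = 0.412, 0.131 and 0.827). PCL1 had 2.01% left at 50 min in the mutant reference against 4.96% in the wild type. The median over the 8 was 15.5 min against 10.1 min in the wild type. Over fitted probe sets the median was 24.5 min against 23.3 min, and the 5th percentile was 15.96 min against 11.34 min. The 95th percentile was 38.2 min against 47.4 min. The short-lived end of all fitted probe sets thus also had longer half-lives in the mutant. The share of all fitted probe sets with a longer half-life in the mutant was not counted. The mutant reference course has 1 array out of order that enters these values. CLN1 stood there at 10.71, 10.35, 8.86, 9.98, 8.07, 7.80 and 7.95 at the start and after 5, 10, 20, 30, 40 and 50 min, with the level at 20 min above that at 10 min. The same step up was seen in all 8 genes, from 0.10 in SIC1 to 1.26 in PCL1.

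In H2O2, where the scaled ratios of the mutant fall at every step, the half-lives of CLN1, CLN2, CLB6, PCL1 and PCL2 were 4.98, 10.3, 6.01, 4.52 and 13.9 min in the wild type and 8.88, 16.2, 10.5, 9.25 and 19.5 min in the mutant. Those of CLN3, CLB5 and SIC1 were 14.5, 20.1 and 33.7 min in the wild type and 12.8, 18.0 and 26.4 min in mutant cells. The 5 genes with a longer half-life in the mutant here are 5 of the 7 with a longer one in the reference. The slopes of the RMA level in H2O2 were nevertheless steeper in the mutant for CLN1, PCL1 and CLB6 (-0.052, -0.088 and -0.053 per min against -0.026, -0.046 and -0.041). For CLN2 and PCL2 they were less steep in the mutant (-0.028 and -0.015 against -0.032 and -0.026). These slope differences between strains in H2O2 were not tested. Over fitted probe sets the 5th percentile in H2O2 was 12.7 min in the wild type and 16.2 min in the mutant. Within a strain the half-life in H2O2 over that in the reference lay between 0.69 for PCL1 and 1.64 for CLB5 in the wild type, and between 0.78 for CLN3 and 1.13 for CLN1 in the mutant. The fit of CLN3 in H2O2 in the wild type was poor (R2 = 0.825), as was that of PCL1 in the mutant reference (R2 = 0.889).

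**Figure D4:**
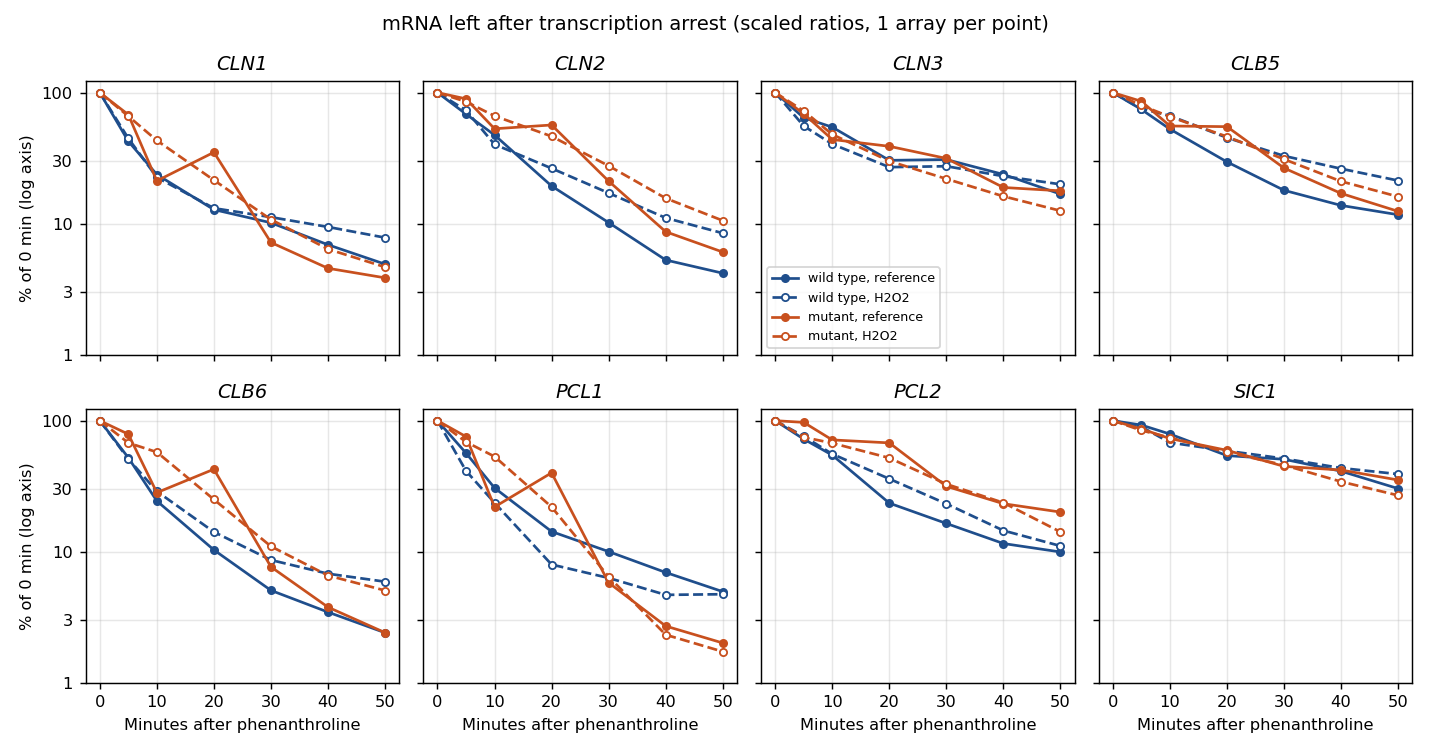
Percentage of each mRNA left after phenanthroline, on a log axis, from the deposited scaled ratios, in the wild type (blue) and the mutant (orange), without stress (filled points, solid lines) or after H2O2 (open points, dashed lines), 1 array per point. SIC1 keeps 26.9% to 39.1% at 50 min, while CLN1, CLB6 and PCL1 go below 8%. The wild type curves of CLN1 flatten after 20 min, and the 20 min point of the mutant reference lies above the 10 min point in CLN1, CLN2, CLB6 and PCL1.

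**Figure D5:**
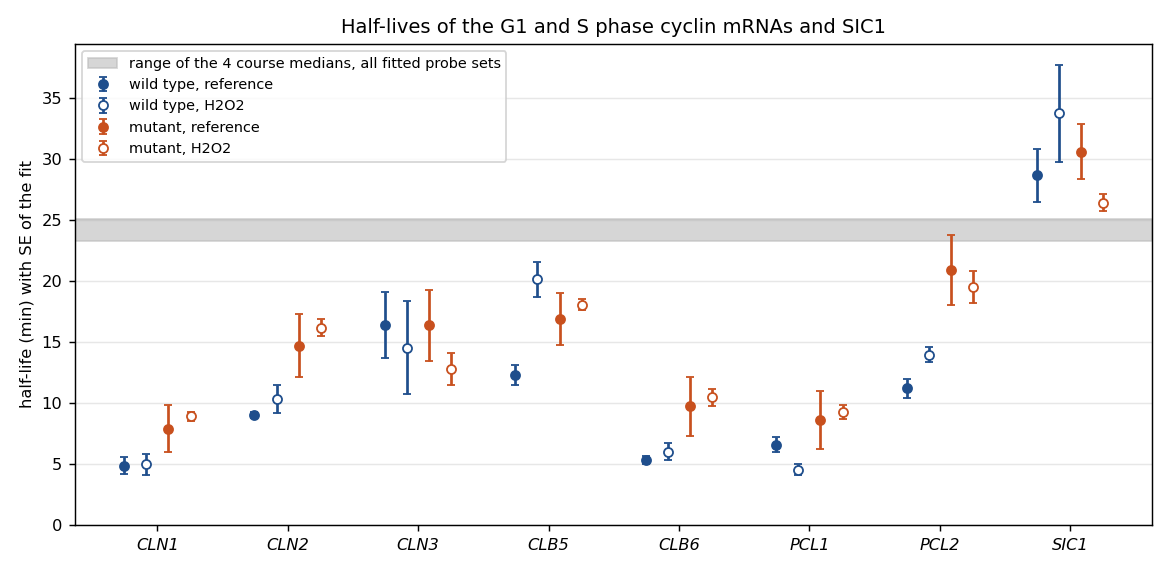
Half-life in minutes of the 8 mRNAs in each strain and decay course, with the standard error of the exponential fit. The grey band spans the medians of all fitted probe sets in the 4 courses, from 23.3 to 25.0 min. 7 of 8 genes lie below it in each course, and SIC1 lies above.

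The tests of decay used the RMA levels, where a negative slope is a faster loss than that of the average mRNA, in log2 units per min. In the wild type reference course 6 of 8 slopes were negative and passed limma, against 33.7% of all tested probe sets, and 1 was positive and passed (SIC1), against 41.4%. The steepest was that of CLB6, -0.068 ± 0.010 (SE), followed by CLN2 at -0.058 ± 0.006. CLN3 was at -0.0076 ± 0.0061 and did not pass (adjusted p = 0.263). SIC1 at 0.0049 ± 0.0021 passed narrowly (adjusted p = 0.0396) and was lost without the arrays of 0, 30, 40 or 50 min (adjusted p between 0.0578 and 0.166).

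The wild type H2O2 course had 5 slopes that were negative and passed (31.4% of all tested probe sets) and again a positive one that passed, SIC1 (40.1%), with CLN3 and CLB5 not passing. The call of CLN1 was lost without the arrays of 0, 5, 30 or 40 min (adjusted p between 0.0712 and 0.388), and its slope without 0 min was -0.011 in place of -0.026. In the mutant 6 slopes were negative and SIC1 positive in the reference, against 34.7% and 35.0% of all tested probe sets. In the mutant in H2O2 7 were negative, against 30.9%, and SIC1 did not pass (adjusted p = 0.564). PCL1 had a slope of -0.079 ± 0.012 and -0.088 ± 0.012 in the mutant courses, and no tested probe set had a lower one in either. The call of PCL1 in the wild type in H2O2 was lost without 0 min (adjusted p = 0.0526), those of PCL2 without 5 or 40 min (0.0596 and 0.0821) and of SIC1 without 50 min (0.0598) in the mutant reference, and that of PCL2 without 50 min in the mutant in H2O2 (0.0505). Lines from 0 to 20 min only, with 4 arrays a course, passed none of the 8 in either mutant course. Without the mutant reference array of 20 min, 5 of 8 passed in the mutant reference (CLN1, CLN3, CLB5, CLB6 and PCL1) and none in the mutant in H2O2.

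The order of the slopes was not that of the half-lives. In the wild type CLN1 had the shortest half-life of the 8 in the reference and a slope of -0.039, less steep than those of CLN2, CLB6 and PCL1. Its RMA level there went from 10.35 to 9.31, 8.66 and 8.16 in the first 20 min and then stood at 8.22, 8.04 and 7.94, so that the line averages a steep and a flat stretch. Mutant CLN1 was still falling between 20 and 30 min in both courses.

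H2O2 went with a less negative slope for 2 of 8 genes in the wild type, against 5.35% of all tested probe sets. CLN2 changed from -0.058 to -0.032 per min, by 0.026 ± 0.008 (limma adjusted p = 0.041), and CLB5 from -0.026 to -0.0055 per min, by 0.020 ± 0.005 (adjusted p = 0.0161). Both began lower in the H2O2 course, CLN2 at 9.55 against 10.63 in the reference and CLB5 at 9.61 against 10.27. At 50 min CLN2 was at 7.92 in H2O2 and 7.99 in the reference, and CLB5 at 9.31 and 9.10. What the lower start contributes to the flatter slopes was not tested. The call of CLN2 was lost without the arrays of 0, 5, 10, 30, 40 or 50 min (adjusted p between 0.0672 and 0.157) and that of CLB5 without 0, 5 or 40 min (adjusted p between 0.0705 and 0.107). In a fit of the wild type arrays alone neither passed (adjusted p = 0.0629 and 0.0561). CLB6 had a change as large, 0.027 ± 0.014, that did not pass (adjusted p = 0.284). In the mutant none of the 8 passed, against 2.73% of all tested probe sets; 2 passed unadjusted in limma, CLN2 (0.018, adjusted p = 0.201) and SIC1 (-0.0073, adjusted p = 0.173). The difference between the strains' changes passed for none of the 8 in limma, against 0.647% of all tested probe sets. SIC1 passed it unadjusted, with a change of 0.0073 in the wild type and a difference of -0.015 ± 0.004 (adjusted p = 0.173).

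Between strains in the reference, the slope of PCL2 was -0.031 in the wild type and -0.013 in mutant cells, a difference of 0.018 ± 0.006 (limma adjusted p = 0.0245). It was the 1 of 8 genes to pass in that direction, where 17.4% of all tested probe sets did, and no member passed in the other, where 19.1% did. The call was lost without the arrays of 0, 5, 10 or 40 min (adjusted p between 0.0625 and 0.204) and the difference was then between 0.012 and 0.019. With the mutant reference arrays of 10 and 20 min exchanged PCL1 passed too, with a mutant minus wild type difference of -0.040 (adjusted p = 0.0326).

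Other genes of the same network were read from lists of which every member was counted. In H2O2 the mitotic cyclin genes CLB1 to CLB4 fell in 4 of 4 cases in the wild type (median largest change -0.94) and 2 of 4 in the mutant (-0.41), with CLB2 at -1.25 and -0.49. Of 14 other M/G1 genes 12 fell in wild type cells (median -0.76), while 7 fell and 1 rose in mutant cells (-0.45). Of 22 other late G1 genes 15 fell and 2 rose in wild type cells (-0.55), while 14 fell in mutant cells (-0.45). Beside these counts, 27.6% (wild type) and 10.2% (mutant) of all tested probe sets were called lower in H2O2. RNR1, the ribonucleotide reductase gene that MBF drives, fell in both strains, with changes of -0.71 and -0.97 (limma adjusted p = 6e-05 and 0.000262), and its curves differed between strains, with a mean difference of -0.38 (adjusted p = 0.0393). Of the genes of the SCF ubiquitin ligase, 5 of 6 rose in the wild type and 2 of 6 in mutant cells, where 28.7% and 12.5% of all tested probe sets were called higher, among them CDC34 by 0.46 and 0.47 and CDC4 by 0.35 and 0.32.

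Of 15 regulators of G1/S transcription, 8 fell and 2 rose in wild type cells in H2O2 (median -0.41). Of all tested probe sets 27.6% were called lower and 28.7% higher in that course. Mutant cells had 1 regulator lower and 2 higher (median -0.28), beside 10.2% lower and 12.5% higher among all tested probe sets. XBP1, a stress-induced repressor that is known to bind the CLN1 promoter, rose by 1.72 and 1.18 in H2O2 and by 4.38 and 4.56 in MMS in wild type and mutant (limma adjusted p between 3.8e-07 and 0.042). SWI4, which encodes the DNA-binding part of SBF, fell in MMS in both strains (-1.16 in the wild type), while in H2O2 it fell in the wild type (-0.49) and its change of -0.53 in the mutant did not pass (adjusted p = 0.113). NRM1, the MBF co-repressor gene, fell in MMS (-1.60 and -1.45). WHI5, the gene of the SBF repressor, fell in MMS (-1.10 and -0.97), and its changes in H2O2, -0.80 and 0.27, did not pass. WHI3, whose product binds CLN3 mRNA, fell in the wild type in H2O2 (-0.53) and in both strains in MMS (-1.24 and -1.29).

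MBP1, which encodes the DNA-binding part of MBF, rose by 0.64 in the mutant in MMS and had a change of 0.27 in the wild type that did not pass (limma adjusted p = 0.0579). The largest change of SWI6, the subunit that both factors share, was -0.50 in the wild type and 0.47 in mutant cells in MMS, both past the threshold. The test of the difference between the strains' curves in MMS passed for neither MBP1 nor SWI6 (limma adjusted p = 0.648 and 0.732). The kinase genes moved upward in MMS, CDC28 by 0.75 and 0.87 and PHO85 by 1.15 and 1.29. FAR1, which encodes an inhibitor of the Cln kinases and is itself cell cycle regulated, fell in H2O2 (-1.31 and -0.84) and in MMS (-3.76 and -3.29). SWE1, the gene of the kinase that inhibits mitotic Cdc28, fell in MMS (-1.16 and -1.05).

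In MMS the mitotic cyclin genes fell in 4 of 4 cases in both strains (median -2.46 and -2.08) and the M/G1 genes in 12 of 14 in both (-2.24 and -1.77), among them EGT2, a cell separation gene (-5.77 and -4.76), and ASH1, a daughter cell repressor gene (-2.22 and -1.82). Of the 22 other late G1 genes 13 were lower and 8 higher in the wild type and 12 lower and 9 higher in mutant cells, where 45.8% and 44.6% of all tested probe sets were called higher beside the 41.5% and 39.2% called lower. RNR1 fell by 2.20 in the wild type. Of 8 other Pho85 cyclin genes 6 rose and 1 fell in the wild type and 5 rose and 1 fell in mutant cells, whereas PCL1 and PCL2 both fell. The ubiquitin ligase genes rose in 4 of 6 cases in the wild type and 5 of 6 in mutant cells, beside the same 45.8% and 44.6% of all tested probe sets.

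After phenanthroline 20 of the 22 late G1 genes had negative slopes that passed in the wild type reference (median -0.033 per min), 15 in the wild type in H2O2, 19 in the mutant reference (-0.024) and 12 in the mutant in H2O2. Of all tested probe sets 33.7%, 31.4%, 34.7% and 30.9% had such slopes in these courses. The change with H2O2 was positive and passed for 15 of 22 in the wild type and 9 of 22 in mutant cells, against 5.35% and 1.33% of all tested probe sets, with medians of 0.017 and 0.015 per min beside 0.010 and 0.0014 for the 8 genes of G1 and S phase and 0.00040 and -0.00030 over all tested probe sets. RNR1 had changes of 0.030 and 0.025 that did not pass (limma adjusted p = 0.0849 and 0.205). XBP1 had a positive slope of 0.031 in the wild type reference and one of 0.0012 in the wild type in H2O2 that did not pass (adjusted p = 0.778). The difference between these 2 slopes was -0.030 (adjusted p = 0.000582). In the mutant reference its slope was -0.0039 and did not pass (adjusted p = 0.353), a difference of -0.035 from the wild type reference (adjusted p = 2.35e-05).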

How the data were processed

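RNA of 2 strains was read on 58 Affymetrix arrays in 8 courses. The authors made the deposited log2 levels by RMA, the tool named in the submitters' processing notes, and sorted values show 3 sets normalized apart. For decay, the deposited ratio values relate each level to 0 min on a linear scale, after a scaling per time point by the authors. The 30 columns of the authors' log2 fold changes were not used. Array files before RMA are not analysed here, and no genome build is given in the sources used here.

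Of 10928 probe sets, 5716 of S. cerevisiae were tested, 5498 with a gene symbol and 218 with no listed gene; 97.6% had a mean above the 95th percentile of 1747 S. pombe probe sets (5.11), and the number of arrays limits precision. limma 3.58.1 in R 4.3.3 tested the untreated strains with array set as a block, both strains of a stress in one fit with natural splines (3 degrees of freedom), the contrast of both splines, and slopes of level on time over the 28 decay arrays. P-values were adjusted by Benjamini-Hochberg over all tested probe sets (threshold 0.05). The largest change is the observed change from 0 min of greatest size, and it gives a course its direction. Half-lives are exponential fits with a free start (Python 3.11.15, scipy 1.17.1, numpy 2.4.6, pandas 2.3.3), with no test. Figures were drawn with matplotlib 3.10.9. The limma tests and the half-life fits were also run on simulated data with independent noise, which holds no culture effect.

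The 8 genes, the lists and the tests were chosen with earlier results of these data known. Named beside them are fixed genes of each list, whatever their values, and for each member up to 3 genes with the most similar change over 26 treated arrays; of 23 late G1 genes listed, 22 were matched to a probe set. Alternatives covered the variance model, the background filter, median centring, quantile normalization, the block, the spline, the decay times and each time point or replicate left out. Because untreated replicates come from 3 separately normalized sets and nothing says how cultures were related, p-values measure the spread between these arrays.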

Additional observations from a re-analysis of the deposited data

Results flagged for a closer look

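In the wild type the decay slope of CLN2 was less negative in H2O2 than in the reference by 0.026 log2 units per min, and that of CLB5 by 0.020, differences that the limma test of the slope difference itself passed. PCL2 differed between strains in the reference course, with a slope 0.018 per min less negative in the mutant than in wild type cells. These calls depended on single arrays. With 1 time point left out, CLN2 passed in 1 of 7 fits, CLB5 in 4 of 7 and PCL2 in 3 of 7. CLN2 and CLB5 did not pass in a fit of the wild type arrays alone. The value of PCL2 rests on the mutant reference course, whose 10 and 20 min arrays stand out of order to each other. After 7 min of H2O2 PCL2 was 0.76 higher in the mutant, while the wild type value of -0.0139 is 1.01-fold, on 1 array per condition, and that difference was not tested.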

How the results depend on the processing

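The number of the 8 genes passing the limma threshold moved as follows. In untreated cells, where none passed, 1 passed with an intensity trend, 1 among probe sets above background and 1 after quantile normalization (PCL2 each time), and without the replicate block, which here is the array set, 0 passed. A 2-degree spline gave 2 in the wild type and 0 in mutant cells in H2O2, and a spline in log time, chosen after seeing the data like the other 2 additions named below, gave 8 in the mutant in H2O2 and 2 for the strain contrast in MMS. With 0 to 20 min only, 0 passed in the mutant reference, 0 in the mutant in H2O2, 0 for H2O2 minus reference in the wild type, and 3 for mutant minus wild type in the reference (CLN2, CLB5 and PCL2). Leaving out the mutant reference array of 20 min as well (an addition) gave 5 in the mutant reference and 0, 0 and 0 for the last 3 of these. Fitting the strains separately (an addition) gave 0 for H2O2 minus reference in the wild type, and also lost CLN3 and SIC1 in the wild type in H2O2 (adjusted p = 0.115 and 0.0812), SIC1 in the mutant in MMS (0.0893), and the slopes of SIC1 in the wild type reference (0.0849) and CLN1 in the wild type in H2O2 (0.0573). Exchanging the mutant reference arrays of 10 and 20 min gave 2 for mutant minus wild type. The sign of a called slope turned only with 0 to 20 min: SIC1 to -0.00675 in the wild type reference and -0.000749 in the wild type in H2O2 (with and without the mutant reference 20 min array), PCL2 to 0.00792 in the mutant reference, and SIC1 to -0.00701 there without the 20 min array. A line through log ratios gave a median half-life in the wild type reference of 13.6 min in place of 10.1 min.

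Leaving out 1 time point or replicate gave 0 to 0 in untreated cells, 5 to 8 in the wild type and 0 to 7 in mutant cells in H2O2, 7 to 8 in each strain in MMS, and 0 to 0 for both strain contrasts. For slopes it gave 6 to 7 in the wild type reference, 4 to 6 in the wild type in H2O2, 6 to 7 in each mutant course, 0 to 2 and 0 to 0 for H2O2 minus reference in wild type and mutant, 0 to 1 for mutant minus wild type, and 0 to 0 for the contrast of slope changes. The median half-life of the 8 in the wild type reference ran from 9.95 to 11.1 min. Without 0 min arrays a stress course has no start, so only its count is given. Precision is limited by 1 array per time point, and probe sets near background have compressed changes.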
